A study of Mus musculus with 6 samples.

Results

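The genes Clec3a, Chad, Cytl1, Matn1, Matn2, Matn3, Matn4, Sox5 and Sox6, which are best known from cartilage, were followed in mouse aortic valves. They were chosen by name, with earlier results of these data known, and all 9 were found among the 46983 genes of the deposited table. The valves came from wild type C57BL/6J mice. For each age, postnatal day 2 (PND2) or 4 months, 3 RNA-seq libraries were analysed. Each library was made from the pooled valves of 5 to 6 mice, so single animals were not measured. No allele, transgene or treatment separated the groups, and age was the only difference the labels gave. Libraries are named below by age and replicate number.

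Cartilage is built by chondrocytes, which secrete a matrix of type II collagen, aggrecan and smaller adaptor proteins. The transcription factor Sox9 starts the chondrocyte program, and the related factors Sox5 and Sox6 work beside it. Heart valve leaflets also hold a proteoglycan-rich layer, and valve interstitial cells are known to express part of this program. Among the genes studied here, Clec3a encodes a C-type lectin of cartilage matrix. Chad encodes chondroadherin, a leucine-rich repeat protein that binds collagen and integrins, and Cytl1 encodes a small secreted protein first described as cytokine-like. Matrilins are adaptor proteins that link collagen fibrils to other matrix components. Matn1 and Matn3 are largely restricted to the skeleton, while Matn2 and Matn4 are made in many tissues.

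Library totals ran from 23810507 to 38994657. Values are RPKM, the reads on a gene scaled by its exonic length and by the library total, and whole reads could be recovered from them. The ages were compared with limma on log2(RPKM + 0.1), a scale that understates the change of low genes, with 2-sided tests and Benjamini-Hochberg adjustment over the 25903 genes with at least 0.1 RPKM in 3 libraries. Means are given ± SD (n = 3 libraries per age). For a single gene, the smallest p that an exact permutation test of 3 against 3 libraries allows is 0.1. All libraries expressed the interstitial marker Vim (1262 to 2261 RPKM) and Postn, a matrix gene of valve leaflets (500.2 to 1125 RPKM). The cardiomyocyte gene Myh6 was also present in each, at 1793 to 3670 RPKM. In RNA from whole tissue, fewer cells of a type and less RNA per cell cannot be told apart.

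Of the 9 genes, 7 passed the filter on low values, Clec3a only because of its libraries of 4 months, while Matn1 and Matn3 did not. Of these 7, 5 rose with age past an adjusted p of 0.05 (Clec3a, Chad, Cytl1, Matn2 and Sox6), and Matn4 and Sox5 did not pass. Among all genes tested, 35.8% passed, 14.7% as higher at 4 months and 21.1% as lower. For 6 of the 7 genes (all but Matn4) no library of one age lay within the range of the other, which held for 50.0% of all genes tested. The median log2 fold change was 1.05 over the 7 genes and -0.14 over all genes tested. For median scaling, each library was shifted by the median deviation of its log2 values from the gene means over all libraries. The median of all genes then moved to -0.02, and the same 5 of the 7 genes were called. An unequal-variance test per gene called 2 of the 7 (Clec3a and Chad), and the calls on Cytl1, Matn2 and Sox6 were lost. That scaling also raised the share of called genes that were higher at 4 months from 41.1% to 52.7%.

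**Figure D1:**
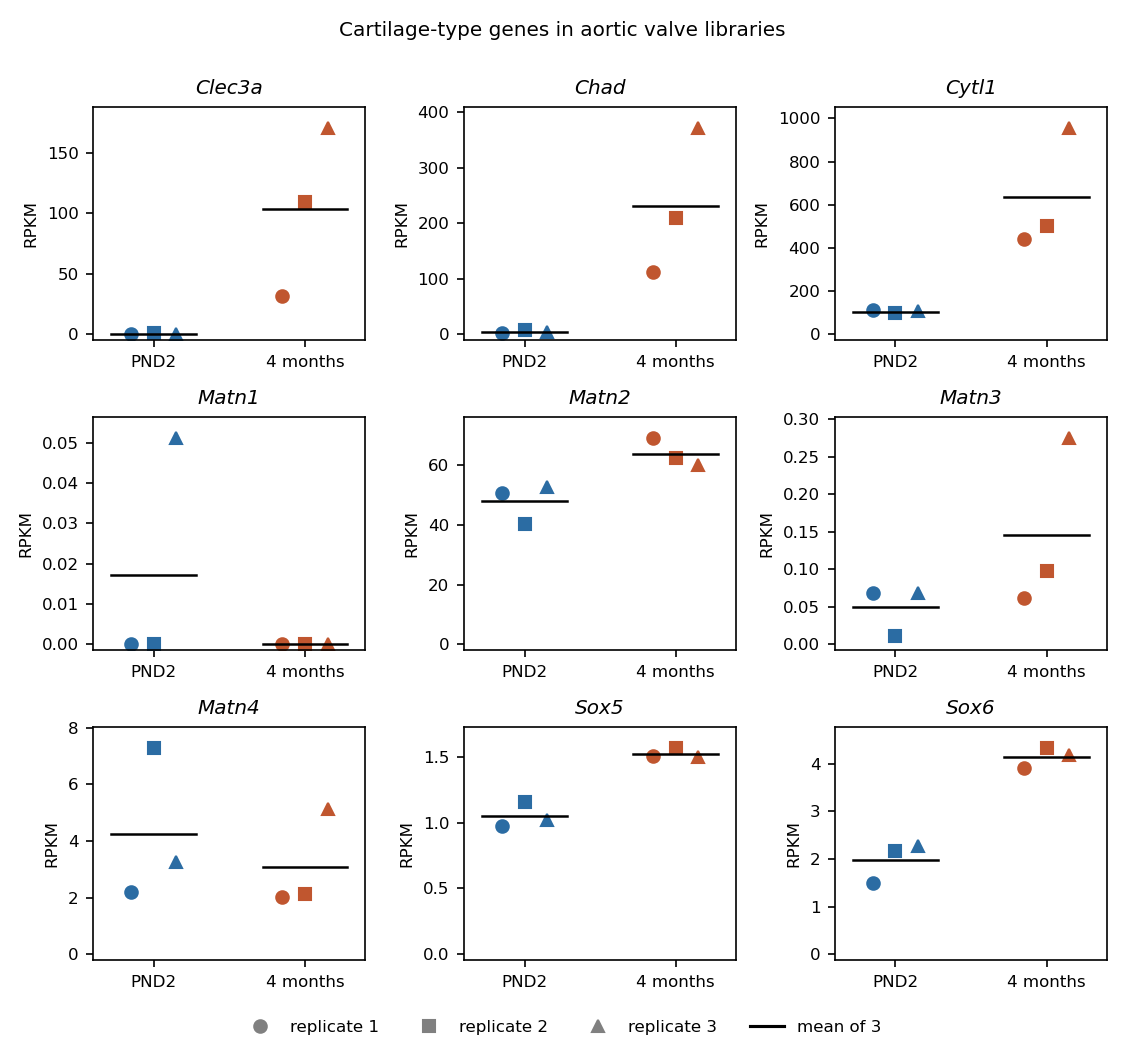
Expression of the 9 genes in each library, in RPKM on a linear axis from 0 for each gene. Points are libraries, with the shape giving the replicate number, and the bars are means of 3 libraries. Clec3a, Chad and Cytl1 were higher in all 3 libraries of 4 months, with replicate 3 highest, while the ages overlapped for Matn4.

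At 4 months the order of the mean levels per exon length was Cytl1, Chad, Clec3a, Matn2, Sox6, Matn4, Sox5, Matn3 and Matn1. In this order the values of Chad and Clec3a overlapped across libraries, as did those of Clec3a and Matn2 and those of Sox6 and Matn4. At PND2 the order was Cytl1, Matn2, Chad, Matn4, Sox6, Sox5, Clec3a, Matn3 and Matn1. There, the ranges of Chad and Matn4, of Matn4 and Sox6, of Clec3a and Matn3, and of Matn3 and Matn1 overlapped. Clec3a moved from position 23760 to position 1587 when the 25903 genes tested were ranked from the highest mean RPKM. Chad moved from position 14618 to 738, and Cytl1 from 1623 to 240.

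Clec3a (ENSMUSG00000008874) lies on chromosome 8 of mm10 at 114418086 to 114425846, on the plus strand. It was listed at 0, 0.610 and 0.0578 RPKM in PND2 replicates 1, 2 and 3, which stand for 0, 11 and 1 reads. At 4 months it had 31.3, 110 and 171 RPKM in replicates 1, 2 and 3, or 691, 1542 and 2922 reads. Clec3a was thus close to the limit of detection in all PND2 libraries and readily detected in each library of 4 months. In PND2 replicate 1, 3 reads would have been worth 0.130 RPKM, the upper limit that a count of 0 allows (counting error only). The means were 0.223 ± 0.337 RPKM at PND2 and 104 ± 69.9 RPKM at 4 months, a 467-fold difference. On the log2 scale the change was 8.55 with a standard error of 0.85 (limma adjusted p = 4.5e-04). All 3 exons of Clec3a rose, and the middle exon of 84 bases had no reads at PND2 and a mean of 157 RPKM at 4 months. The size of the fold rested on few PND2 reads, since it was 311-fold without PND2 replicate 1 and at least 684-fold without PND2 replicate 2, with PND2 taken at 3 reads per library.

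Chad (ENSMUSG00000039084) lies on chromosome 11 at 94565047 to 94569127, on the plus strand. It had 2.58, 7.47 and 3.25 RPKM in the PND2 libraries and 112, 209 and 372 RPKM in the libraries of 4 months. The lowest value at 4 months stood for 7056 reads and the highest at PND2 for 383 reads, so the ages were far apart. The means were 4.43 ± 2.65 and 231 ± 131 RPKM, a 52.2-fold difference. On the log2 scale the change was 5.66 with a standard error of 0.51 (limma adjusted p = 3.2e-04), and all 4 exons rose. Without PND2 replicate 2, the highest of its age, the difference was 79.3-fold, and without 4 months replicate 3 it was 36.3-fold. Acsf2, a gene on the opposite strand, overlaps Chad and had means of 6.76 RPKM at PND2 and 7.43 RPKM at 4 months.

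Cytl1 (ENSMUSG00000062329) lies on chromosome 5 at 37735519 to 37739820, on the plus strand. Unlike Clec3a and Chad, it was already abundant at PND2, with 111, 96.2 and 108 RPKM. At 4 months it had 442, 503 and 957 RPKM, and the lowest of these was still above every PND2 library. The means were 105 ± 7.91 and 634 ± 282 RPKM, a 6.03-fold difference (log2 fold change 2.51, standard error 0.27, limma adjusted p = 6.7e-04). All 6 annotated exon forms of Cytl1 rose, by 2.47 to 2.64 on the log2 scale. With any 1 library left out, the difference of means stayed between 4.49-fold and 6.95-fold.

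The sequences just before the RefSeq start sites of Chad and Cytl1 are shown because both genes rose in every library of 4 months from different starting levels. RefSeq promoters (GRCm38.p6) were matched by Entrez Gene ID for 7 of the 9 genes, and Clec3a and Matn2 had no match. The search covered the 250 bases before each start, on both strands, for TATAAA (the TATA box core) and ACAAT (the core letters bound by SOX proteins), and matches are in capitals. The Chad window is chr11:94564797-94565046, plus strand, and the Cytl1 window is chr5:37735269-37735518, plus strand, both 5′ to 3′.
Chad: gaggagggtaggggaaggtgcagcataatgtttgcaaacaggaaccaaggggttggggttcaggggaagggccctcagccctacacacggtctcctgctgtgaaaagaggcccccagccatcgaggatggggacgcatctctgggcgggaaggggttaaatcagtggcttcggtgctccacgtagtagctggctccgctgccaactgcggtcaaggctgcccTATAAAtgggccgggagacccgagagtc
Cytl1: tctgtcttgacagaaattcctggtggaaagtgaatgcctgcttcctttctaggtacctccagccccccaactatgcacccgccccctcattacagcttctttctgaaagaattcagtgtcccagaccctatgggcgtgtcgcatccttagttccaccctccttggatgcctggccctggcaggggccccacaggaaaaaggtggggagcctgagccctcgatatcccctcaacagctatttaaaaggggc
The Chad window held TATAAA with its first base at position -28 from the start, and no ACAAT. Neither string was found in the Cytl1 window. Of 32851 RefSeq promoters, 12.4% held TATAAA and 27.7% held ACAAT on either strand. A match is a description of the letters and not a binding site.

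Among the matrilins, Matn2 was the abundant member. Matn2 (ENSMUSG00000022324) lies on chromosome 15 at 34306680 to 34436242, on the plus strand. It had 50.7, 40.4 and 52.8 RPKM at PND2 and 69.3, 62.3 and 60.3 RPKM at 4 months. The ages did not overlap, but the gap between them was small. The means were 48.0 ± 6.61 and 64.0 ± 4.73 RPKM, a 1.33-fold difference (log2 fold change 0.42, standard error 0.12, limma adjusted p = 0.0351). This call was lost in 4 of the 6 fits that left out 1 library (PND2 replicate 2, or any 1 library of 4 months), where limma gave an adjusted p of 0.067 to 0.0986, and the log2 fold change then was 0.30 to 0.46. All 23 exon forms of Matn2 had a log2 fold change above 0, from 0.13 to 0.68, and 2 of them passed the test. The gene 9430069I07Rik overlaps Matn2 on the opposite strand, with means of 8.14 and 12.7 RPKM.

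Matn4 (ENSMUSG00000016995) lies on chromosome 2 at 164389393 to 164405160, on the minus strand. It was low at both ages, with 2.18, 7.29 and 3.24 RPKM at PND2 and 2.03, 2.11 and 5.11 RPKM at 4 months. Each age had a library well above the others, PND2 replicate 2 and 4 months replicate 3, and the ages overlapped. The means were 4.24 ± 2.70 and 3.08 ± 1.75 RPKM. The log2 fold change was -0.40 with a 95% confidence interval of -1.59 to 0.79 (limma adjusted p = 0.583), and without PND2 replicate 2 it was 0.074.

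Matn3 (ENSMUSG00000020583), on chromosome 12 at 8947929 to 8972028, had 8, 1 and 6 reads at PND2 and 7, 7 and 24 reads at 4 months. Its highest value was 0.275 RPKM, in 4 months replicate 3, and the ages overlapped. Matn1 (ENSMUSG00000040533), on chromosome 4 at 130944385 to 130955475, had 3 reads in PND2 replicate 3 and 0 reads in the 5 other libraries. At 4 months, 0 reads allow up to 0.0401, 0.0630 and 0.0518 RPKM in replicates 1, 2 and 3. No difference between the ages was detectable for Matn1 at this depth. The matrilin genes best known from the skeleton were therefore both below the filter.

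Sox5 and Sox6 encode the SoxD factors, which bind DNA through an HMG box, lack a transactivation domain of their own and act with Sox9 in chondrocytes. Sox6 (ENSMUSG00000051910) lies on chromosome 7 at 115470872 to 116038796, on the minus strand. It had 1.50, 2.17 and 2.27 RPKM at PND2 and 3.92, 4.34 and 4.18 RPKM at 4 months. The libraries of 4 months lay close together and above every PND2 library. The means were 1.98 ± 0.420 and 4.14 ± 0.214 RPKM, a 2.09-fold difference (log2 fold change 1.05, standard error 0.21, limma adjusted p = 0.00867). The antisense gene Sox6os overlaps it and had means of 1.28 and 1.62 RPKM. The sources used here do not say if reads were counted by strand, so reads of overlapping genes on opposite strands cannot be told apart.

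Most Sox6 reads fell in the last exon of the gene, at the 3′ end, which has 6350 of the 14832 exonic bases. This exon held 77.0, 77.7 and 74.8% of the Sox6 reads in the PND2 libraries and 82.3, 82.0 and 83.8% at 4 months. The share was higher in each library of 4 months than in any PND2 library. The last exon alone rose by 1.18 on the log2 scale (limma adjusted p = 0.00322), while the remaining exons gave 0.58 (limma adjusted p = 0.139). The rest of Sox6 had 0.602, 0.846 and 1.00 RPKM at PND2 and 1.21, 1.37 and 1.19 RPKM at 4 months. The difference between the last exon and the rest was 0.59 on the log2 scale (standard error 0.12). Its adjusted p was 0.136 by limma without the mean-variance trend, so it did not pass. In that test 40 of 16477 genes passed, or 0.243%. Without its last exon, which held most of the reads, Sox6 thus did not pass the threshold. The rest of the gene had fewer reads and also a log2 fold change above 0, so a rise particular to the last exon was not shown.

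Sox5 (ENSMUSG00000041540) lies on chromosome 6 at 143828425 to 144781977, on the minus strand. It had 0.970, 1.15 and 1.02 RPKM at PND2 and 1.50, 1.57 and 1.50 RPKM at 4 months. The ages did not overlap, and the libraries within each age lay close together. The means were 1.05 ± 0.0946 and 1.52 ± 0.0393 RPKM, a 1.45-fold difference. The log2 fold change was 0.50 with a 95% confidence interval of -0.01 to 1.02 and did not pass the threshold (limma adjusted p = 0.118). Without the mean-variance trend it passed, with a limma adjusted p of 0.0233, so the call on Sox5 depended on how the spread was estimated. As in Sox6, the last exon held most reads of Sox5, between 72.2% and 88.3% in each library.

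Sox5 has several annotated starts, and the exons near them differed. The 6 exon forms that lie within 143943747 to 143947106 had 0 reads in every library. The exon at the 5′ end of the gene had 0 reads in each PND2 library and 14, 1 and 0 reads in the libraries of 4 months. Most reads in Sox5 came from its last exon. The RefSeq start adjoins the first of the exon forms without reads. The window before it is shown for that reason (chr6:143947107-143947356, minus strand, 5′ to 3′, with ACAAT in capitals).
Sox5: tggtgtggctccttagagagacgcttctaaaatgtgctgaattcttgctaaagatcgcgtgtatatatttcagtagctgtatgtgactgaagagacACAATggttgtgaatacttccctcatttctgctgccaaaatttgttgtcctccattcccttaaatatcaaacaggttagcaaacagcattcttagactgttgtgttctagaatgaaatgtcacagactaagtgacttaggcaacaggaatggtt
This window held ACAAT on the strand of the gene, and no TATAAA.

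**Figure D2:**
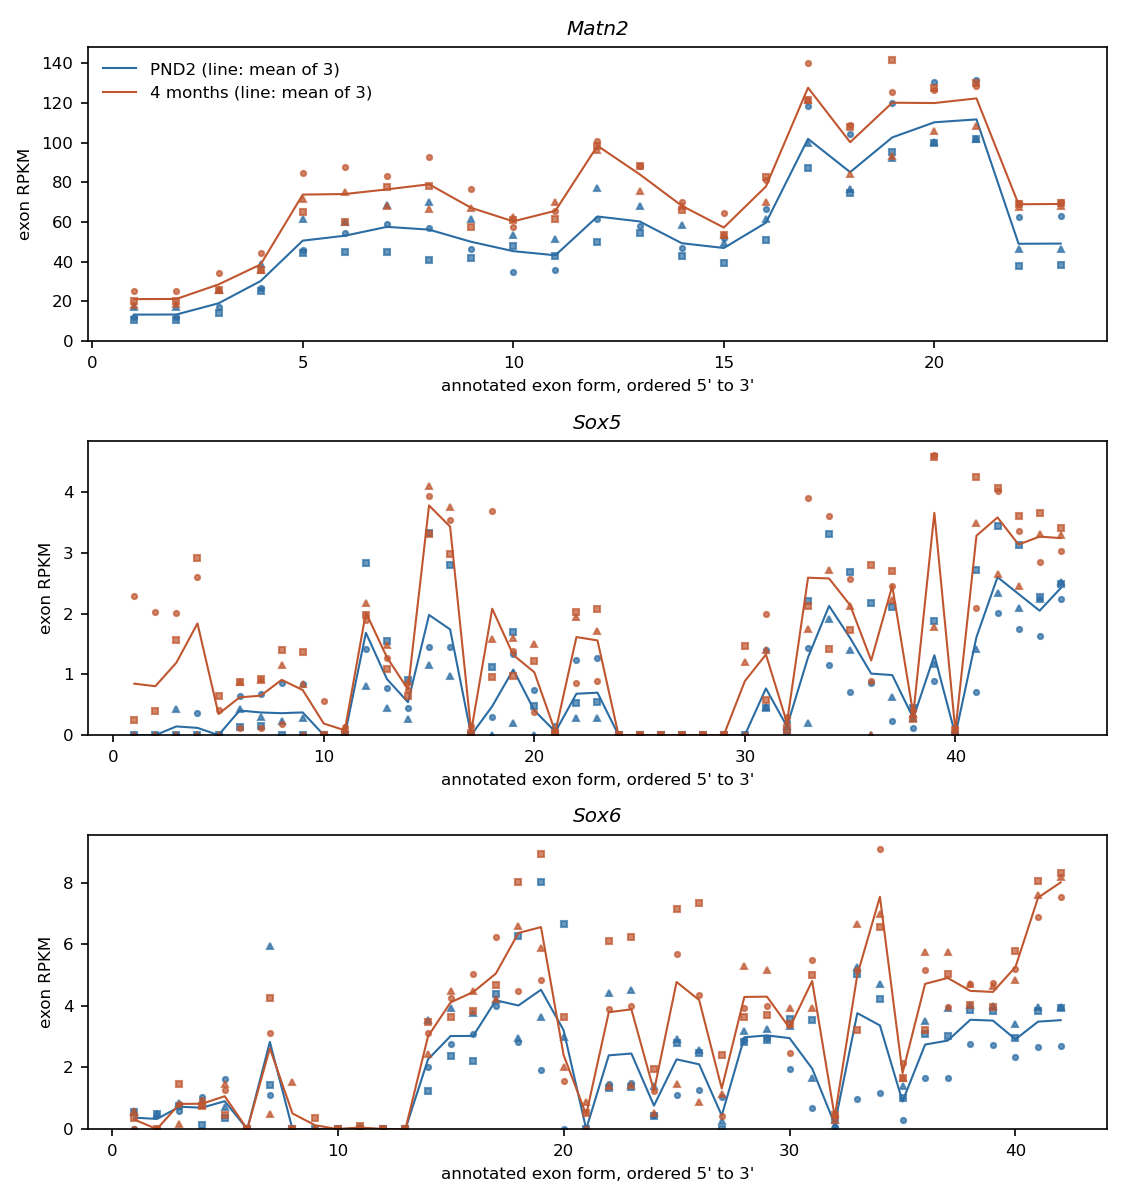
Expression along Matn2, Sox5 and Sox6, in RPKM per annotated exon form ordered from 5′ to 3′. Points are libraries, with the shape giving the replicate number as circle, square and triangle for 1, 2 and 3, and lines are means of 3 libraries. In Matn2 the mean at 4 months lay above that at PND2 in all 23 exon forms, and in Sox6 the forms past the test were the last 2.

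Over all 9 genes, 154 annotated exon forms were listed, 114 could be tested, and 17 passed an adjusted p of 0.05 by limma on exon values. All 17 were higher at 4 months, and among all exons tested 8.27% were called higher. They were 3 exons of Clec3a, 4 of Chad, 6 of Cytl1, 2 of Matn2 and 2 of Sox6, the last being overlapping forms of the same exon. For Clec3a, Chad and Cytl1 the age difference was therefore present along the whole gene. Exon forms that overlap share reads and are not independent.

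The genes most like each member were found by the root mean square difference of their centred log2(RPKM + 0.1) profiles over the 6 libraries, among 20827 genes with a mean of at least 1 RPKM at either age. The 5 closest to Chad were Art1 (0.418), Comp (0.441), Cd209g, Gldn and Slc6a7. Comp encodes cartilage oligomeric matrix protein, and belongs to the cartilage matrix list below. The 5 closest to Clec3a were Pck1 (1.00), Inmt, Cidec, Adipoq and Tmem45b, at larger distances up to 1.34. Of these, Adipoq and Cidec are fat cell genes. The profile closest to Cytl1 was that of Isg20 (0.185), followed by Fam46a, Hspa1l, Plet1os and Espn. Matn2 was closest to Gm11739, Ube2v2, Cav1, Zfp932 and Mterf4, Sox5 to Slc39a14, Gm10642, Sertad2, Zbtb38 and Ndrg2, and Sox6 to Agtpbp1, Hspb6, Wfs1, Epm2a and Brip1. Matn4 was closest to Xlr4c, Gm23798, Xlr4b, Gm9341 and Ltbp2. This likeness over 6 libraries is a description and is largely set by the age difference.

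Other cartilage genes were read from 3 lists. Of 22 cartilage matrix genes, 9 rose, 7 fell and 6 did not pass, with a median log2 fold change of 0.68. Of all genes tested, 14.7% were called higher at 4 months and 21.1% lower. Comp rose from 6.95, 13.3 and 11.5 RPKM to 179, 308 and 642 RPKM (log2 fold change 4.99, limma adjusted p = 3.3e-04). Susd5, a hyaluronan-binding membrane protein, rose by a log2 fold change of 4.10, and the matrix genes Cilp2, Cilp, Epyc, Prg4, Ucma and Col11a2 rose by 3.75, 3.04, 2.37, 2.23, 1.71 and 1.66. Snorc, a chondrocyte membrane proteoglycan listed as 3110079O15Rik, had 0 RPKM at PND2 and 1.19, 0.524 and 3.64 RPKM at 4 months, and was at least 13.9-fold higher, with PND2 taken at 3 reads per library.

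Other cartilage matrix genes fell. The type IX collagen genes Col9a1, Col9a2 and Col9a3 had log2 fold changes of -3.67, -4.61 and -2.62, and Col11a1 had -3.20. Acan, the gene of aggrecan, fell from 57.2, 129 and 58.2 RPKM to 7.36, 10.9 and 16.6 RPKM, and Hapln1, its link protein, had a log2 fold change of -0.97. Scrg1 was the other gene that fell, with -1.82 (limma adjusted p = 0.0449). Its ages overlapped, and it had only 5, 3 and 16 reads in the libraries of 4 months. Col2a1, the defining collagen of cartilage, had 1.52, 5.37 and 2.35 RPKM at PND2 and 0.464, 0.756 and 16.6 RPKM at 4 months. It did not pass the test (log2 fold change -0.48, limma adjusted p = 0.793), and its value in 4 months replicate 3 was far above the others. Col27a1, Cnmd (listed as Lect1), Chadl and Mia did not pass either, with log2 fold changes of -0.85, 1.49, 0.73 and 0.63. Thus Clec3a, Chad and Cytl1 rose together with Comp, Cilp and Prg4, while the collagens of types IX and XI, apart from Col11a2, fell.

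Of 14 chondrocyte regulators, 13 were tested, 5 rose (Runx3, Barx2, Wwp2, Runx2 and Mef2c) and 8 did not pass, with a median log2 fold change of 0.47. Sox9, the partner of Sox5 and Sox6, had 12.5, 15.2 and 9.85 RPKM at PND2 and 7.54, 8.25 and 14.6 RPKM at 4 months (log2 fold change -0.34, limma adjusted p = 0.373). In RPKM over all exonic bases of each gene, Sox9 was above Sox5 and Sox6 in every library of both ages. The last exon of Sox6 alone had 7.53, 8.31 and 8.18 RPKM at 4 months, close to Sox9 in replicates 1 and 2. In replicate 1 Sox9 was still slightly higher (7.54 against 7.53 RPKM). In replicate 2 the last exon of Sox6 was slightly higher than Sox9 (8.31 against 8.25 RPKM), so there the order depended on the exons counted. Sox13, the remaining SoxD gene, had a log2 fold change of 0.00 (95% confidence interval -0.45 to 0.44). Sox8, Trps1, Pth1r, Ihh and Fgfr3 did not pass either, with log2 fold changes of -0.27, 0.47, -0.06, 1.19 and -0.04. Of 5 genes of hypertrophic cartilage and bone, Mmp13, Ibsp, Alpl and Spp1 rose, and Col10a1, the defining collagen of hypertrophic chondrocytes, stayed at or below 0.429 RPKM and did not pass. The median of these 5 genes was 2.79, or 2.87 with Ibsp, which had no reads at PND2, at its bound of 18.6-fold. Over the 3 lists, 40 of 41 genes were tested, and 18 rose, 7 fell and 15 did not pass. The shares over all genes tested were 14.7% higher and 21.1% lower. Among the 18, Snorc, Ibsp and Barx2 met the filter only through the libraries of 4 months. They could enter the test only by being higher there. Barx2 had 5, 3 and 1 reads at PND2 and 33, 9 and 21 reads at 4 months. Without PND2 replicate 2 the genes that fell were 4, as they were without 4 months replicate 1.

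**Figure D3:**
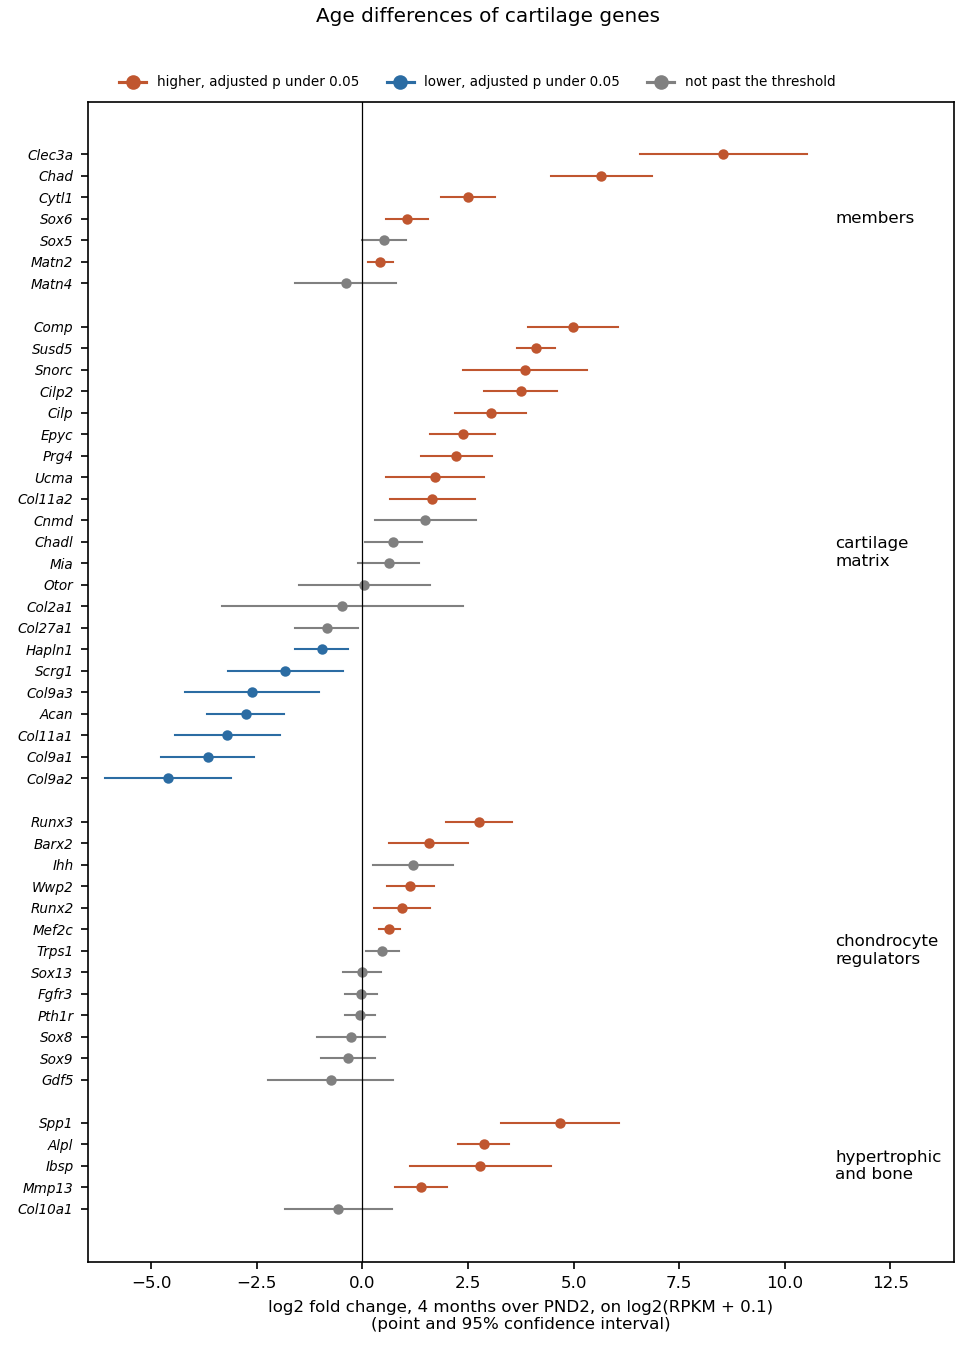
Log2 fold change of 4 months over PND2 for the 7 tested members and the tested genes of the 3 cartilage lists, on log2(RPKM + 0.1), with 95% confidence intervals from limma. Colours mark genes past an adjusted p of 0.05. Clec3a and Chad had the largest values plotted, at 8.55 and 5.66, and the type IX collagen genes lay on the other side of 0.

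The libraries of 4 months differed from each other in these genes. The highest value at 4 months was 5.46 times the lowest for Clec3a, 3.31 times for Chad, 2.17 times for Cytl1 and 2.51 times for Matn4. In contrast, it was 1.15 times for Matn2, 1.05 times for Sox5 and 1.11 times for Sox6. The SD of the log2 values at 4 months was larger for Clec3a than for 96.3% of the genes tested, and for Chad and Cytl1 than for 92.1% and 85.2%. Replicate 1 was lowest and replicate 3 highest for 4 of the 7 tested members (Clec3a, Chad, Cytl1 and Matn4), as for 13 of the 22 cartilage matrix genes. The same order was seen in 9.95% of all genes tested. Replicate 3 was the highest library of 4 months for 20 of the 22 cartilage matrix genes and 25.4% of all genes.

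At PND2, replicate 2 was highest for 4 of the 7 members (Clec3a, Chad, Matn4 and Sox5) and for 13 of the 22 cartilage matrix genes, and for 34.8% of all genes tested. Without both PND2 replicate 2 and 4 months replicate 3, a choice made after the data were seen, the log2 fold changes of Chad and Cytl1 stayed past the threshold. With those 4 libraries Sox6 differed by 1.12 on the log2 scale (limma adjusted p = 0.061) and Matn2 by 0.34 (limma adjusted p = 0.148), and neither passed. Clec3a could not be tested there, since the filter asks for 3 libraries and only 2 of 4 months remained. Its values in these were 31.3 and 110 RPKM. Genes of the cartilage lists that rose then numbered 11, and Snorc, Ibsp and Barx2 could not be tested there under the same filter.

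**Figure D4:**
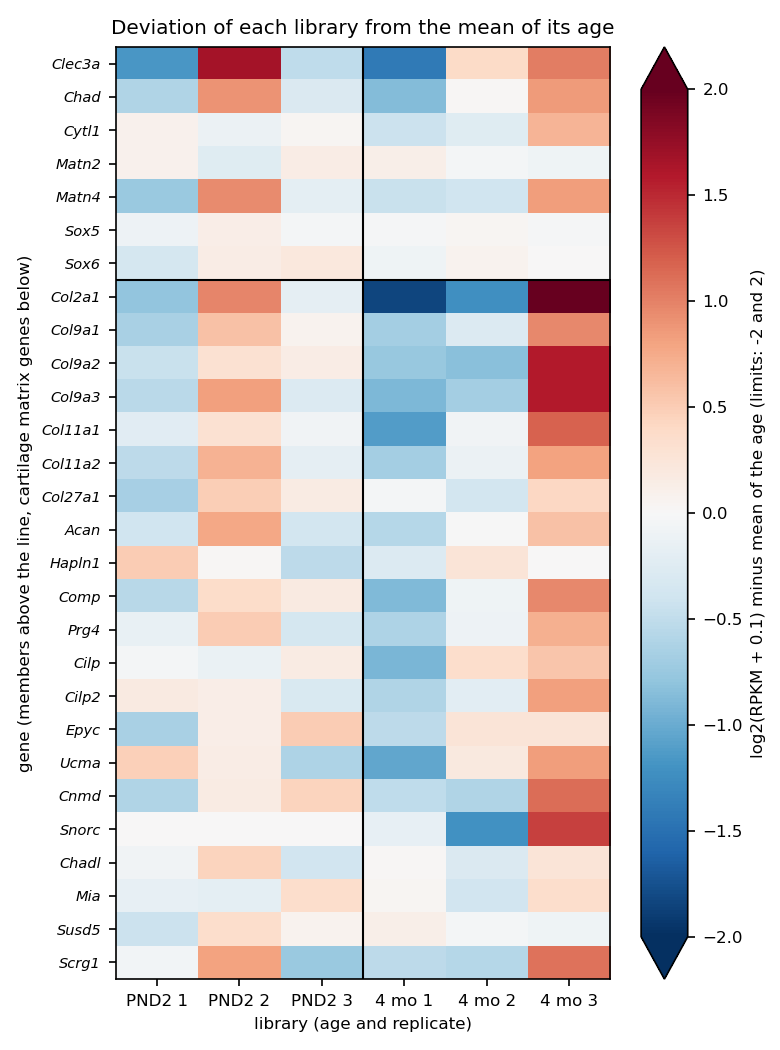
Deviation of log2(RPKM + 0.1) in each library from the mean of its age, for the tested members (above the line) and cartilage matrix genes with a mean of at least 1 RPKM at either age. Red is above and blue below the mean of the age, and colours saturate at -2 and 2. Clec3a, Chad, Cytl1 and Matn4 share with most matrix genes a high value in 4 months replicate 3, while Matn2, Sox5 and Sox6 vary little among the libraries of 4 months.

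Markers of other cells also moved with age and between libraries. Their counts stand beside 14.7% of all genes tested called higher at 4 months and 21.1% called lower. The summed level of 7 adipocyte markers was 85.1 to 159 RPKM at PND2 and 235, 934 and 273 RPKM in replicates 1, 2 and 3 of 4 months. Of these markers 6 rose, and Cidec, Lep and Retn were listed at 0 in all PND2 libraries. Like them, Plin1 and Adipoq met the filter only through the libraries of 4 months. Such genes could enter the test only by being higher there. The adipocyte sum was thus highest in replicate 2 of 4 months, where Clec3a, Chad and Cytl1 were in the middle. The sum of 4 tendon markers was 62.0, 102 and 69.3 RPKM at PND2 and 29.2, 70.7 and 81.4 RPKM at 4 months, with 1 gene that rose (Mkx) and 1 that fell (Scx). The tendon sum followed the order of Clec3a and Chad among the libraries of 4 months, as did 1 of its 4 genes (Scx). Thbs4, Mkx and the defining gene Tnmd (0.277, 2.70 and 0.919 RPKM) were highest in replicate 2. The sum of the 5 hypertrophic cartilage and bone genes was 40.2, 74.7 and 204 RPKM in those libraries, again in the order of Clec3a and Chad. That sum was mostly Spp1 (29.0, 64.5 and 192 RPKM), and 2 of the 5 genes (Spp1 and Ibsp) had this order, while Alpl and Col10a1 were highest in replicate 1 and Mmp13 was lowest in replicate 2. Smooth muscle markers rose in 5 of 5 genes (sums of 7130 to 8227 and 16365 to 27379 RPKM), and 5 of 8 cardiomyocyte markers fell (10619 to 12552 and 3456 to 7084 RPKM). All 6 endothelial markers fell (316 to 431 and 191 to 205 RPKM), and all 5 macrophage markers rose (237 to 257 and 864 to 906 RPKM). Of 8 valve interstitial markers, 5 fell, Postn among them (log2 fold change -0.97), and 2 rose (6779 to 7856 and 9004 to 11303 RPKM). Of 7 Schwann cell markers 3 rose (16.1 to 32.4 and 50.7 to 57.3 RPKM), and of 5 melanocyte markers 2 fell (44.7 to 92.9 and 27.4 to 51.6 RPKM). Erythroid markers summed to 1865 to 2599 and 749.6 to 2158 RPKM. The part of these markers in the differences of Clec3a, Chad, Cytl1, Matn2 and Sox6 was not tested.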

How the data were processed

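The authors aligned RNA-seq reads to the mouse genome (mm10) with TopHat (2.1.0 per the submitters' processing notes) and counted them on genes and exons of Ensembl release 83 with easyRNASeq. The values they deposited are gene and exon RPKM. Strand use in counting is not given in the sources used here. Multiplying an RPKM value by exonic length and library total gave whole reads (tolerance 0.01) for 100% of values above 0. These reads served for limits of detection and for voom. The library totals were inferred by taking the smallest exon values as a single read. Reads can count at several features, and the recovered gene reads summed to 2.31 to 2.36 times the library total. The cause of this excess was not tested, and the limits of detection treat reads as independent. Replicates are separate pools by the labels.

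Ages were compared on log2(RPKM + 0.1) using limma 3.58.1 (R 4.3.3), eBayes with trend, and Benjamini-Hochberg adjustment. Exons were treated likewise. The last exon was set against the rest of each gene after the data were seen, by limma without the trend. The fit was tested on simulated data. Genes and lists were chosen with earlier results of these data known. All 9 members are named, as are list genes with a mean of at least 1 RPKM at either age or that define a list, and the 5 genes most like each member. Runx2, Barx2, Ibsp and the markers Cidec, Lep, Retn, Plin1, Mkx, Scx, Thbs4, Vim and Postn were named after their values were seen. Tables and figures used Python 3.11.15, pandas 2.3.3 and matplotlib 3.10.9. Alternatives were pseudocounts of 1 and 0.01, no filter, at least 1 RPKM, no trend, median scaling, a replicate block, an unequal-variance test per gene, voom, a floor of 10 reads, and each library left out.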

Additional observations from a re-analysis of the deposited data

How the results depend on the processing

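Of 211 values under an alternative, 183 kept their direction and their side of the threshold (counts within 1.5 times). Clec3a and Chad did so in every alternative that gave a value. Clec3a gave none without both PND2 replicate 2 and 4 months replicate 3, where 2 libraries of 4 months cannot meet a filter of 3. With each library left out in turn, the log2 fold change was 7.97 to 9.38 for Clec3a, 5.23 to 6.10 for Chad, 2.17 to 2.72 for Cytl1, 0.30 to 0.49 for Matn2, -0.82 to 0.074 for Matn4, 0.45 to 0.57 for Sox5 and 0.87 to 1.16 for Sox6. Matn4 changed sign, to 0.074, without PND2 replicate 2. In the same fits the members called numbered 4 to 5, the cartilage list genes that rose 12 to 16 and those that fell 4 to 7, all genes called 6301 to 8581, and exons of members 12 to 15. Snorc, Ibsp and Barx2 could not meet the filter where a library of 4 months was left out, which lowers the number that rose. The unequal-variance test per gene left the log2 fold changes as they were (Cytl1 2.51, Matn2 0.42, Sox6 1.05), but these 3 no longer passed. It called 2 members, 6 list genes that rose, 2 that fell and 3408 genes in all. Matn2, at 0.42, was also lost without the trend (limma adjusted p = 0.0809) and with a floor of 10 reads (0.0608), and from its last exon alone, at 0.52 (0.0508). Sox5, at 0.50, passed without the trend (limma adjusted p = 0.0233) and with the floor (0.0077), and with voom, at 0.55 (0.0149). The floor left 4 list genes that fell. Sox6 was lost without its last exon, at 0.58. Without both PND2 replicate 2 and 4 months replicate 3, added after the data were seen, Matn2 (0.34) and Sox6 (1.12) were lost, and 2 members, 11 list genes that rose and 4047 genes in all were called. The causes were not tested.

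Same-numbered libraries did not deviate together (correlations across genes of 0.044, -0.061 and -0.160), so the numbers do not pair the ages. With the replicate block 4 members, 7167 genes and 13 exons of members were called, and Matn2 (log2 fold change 0.42) had a limma adjusted p of 0.0549.

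Depth limits Matn1, Matn3 and the PND2 level of Clec3a, which rest on at most 24 reads in a library.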
